A study of Mus musculus with 8 samples.

Results

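The genes described here encode 10 secreted glycoproteins of the extracellular matrix: Matn4, Matn2, Nid1, Nid2, Fn1, Thbs1, Hspg2, Sparc, Fbln1 and Lamc1. They were chosen by symbol, with earlier results of these data known, and each matched 1 of the 38172 genes in the deposited table. Polyadenylated RNA was measured in haematopoietic stem cells (HSCs), from which all blood lineages derive. They were freshly sorted from C57BL/6 mice by the gate SP-KSL-CD150+: dye-excluding (side population) cells positive for Kit, Sca-1 and the surface receptor CD150 and negative for the markers of mature lineages. The young group was 4 months old and the old group 24 months old, and the labels give no genetic change or treatment for either. Each age had 2 biological replicates, numbered 13 and 14, with 2 technical libraries each, so n = 2 per age. How many mice gave a replicate is not given in the labels, so a p-value covers only the spread seen among the 4 replicates, which may be partly technical.

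The matrix is the protein network outside cells. Basement membranes are sheets of laminin and collagen IV networks that nidogens and perlecan link together. Fibronectin and matrilins form fibrils or filaments in looser matrix, while matricellular proteins such as thrombospondin and SPARC act mainly on signalling and on matrix assembly. In bone marrow such proteins are made by stromal, endothelial and blood cells, and stem cells bind them through integrins and other receptors.

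Values are called scaled reads here, since within each library they are spaced as reads multiplied by 1 factor and rounded would be. Technical libraries were averaged. The 8 libraries held between 22.26 M and 66.48 M reads (M, mega), as recovered from that spacing, and between 40.74 M and 44.22 M after scaling. The genes of the sort were present in all 4 replicates, with Kit between 54958 and 63950, Ly6a (Sca-1) between 2573.5 and 5566, and Abcg2, a transporter that exports the dye, between 4521.5 and 6647.5. Slamf1 (CD150) rose from 1597 and 1735.5 in young to 3175 and 3083 in old HSCs (adjusted p = 0.0226 in limma). All 10 HSC markers had both old replicates above both young ones, and 2 were called higher (Slamf1 and Procr). Of all tested genes 24.7% had that arrangement and 2.01% were called higher. Markers of other cells were also detected, among them the endothelial cadherin Cdh5 at 19 and 16 in young against 7 and 7 in old HSCs. Cdh5 did not pass (adjusted p = 0.224 in limma). Of 11 tested endothelial markers 2 were called higher in old HSCs and 0 lower, with 6 fitted differences below 0 and 5 above. Those called were Ramp2, from 77.5 and 88 to 663.5 and 884.5, and Kdr, from 470 and 598 to 1331.5 and 1296.5. Of 6 lymphoid markers 0 were called in limma or limma-voom, with 2 at an unadjusted p under 0.05. In bulk RNA, fewer cells of a type and less RNA per cell cannot be told apart.

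Of the 10 genes, Matn4 rose with age, Sparc fell, and 8 did not pass the test. All 10 passed the filter on low values (at least 10 scaled reads in at least 2 replicates), as did 18318 genes in all. The test was limma on log2(scaled reads + 0.5), and a gene was called at a Benjamini-Hochberg adjusted p under 0.05 over all genes tested. By that rule 2.55% of all tested genes were called, 2.01% as higher and 0.54% as lower in old HSCs. The median fitted difference, old minus young, was -0.34 on the log2 scale over the 10 genes and 0.04 over all tested genes.

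**Figure D1:**
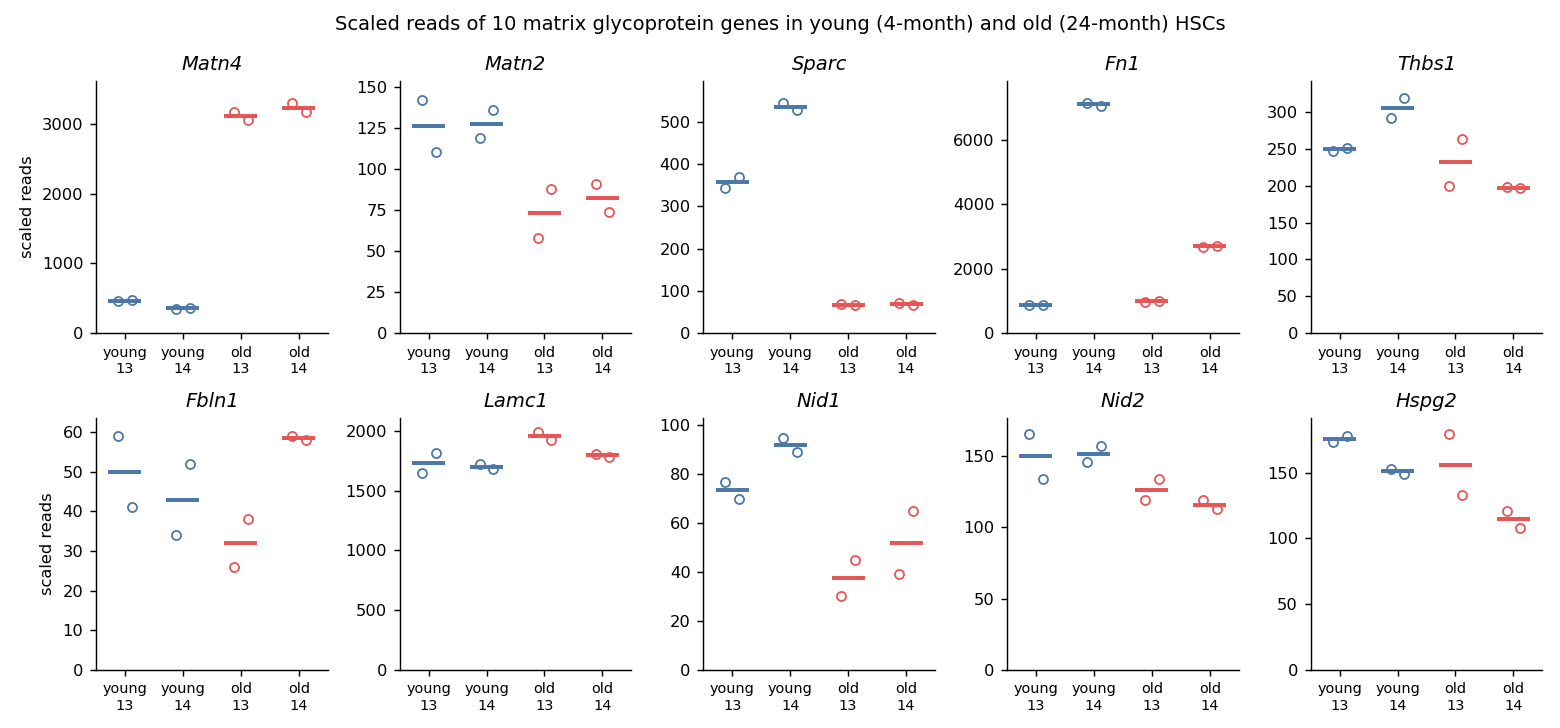
Scaled reads (vertical axes, each starting at 0) of the 10 genes in each biological replicate. Open circles are the technical libraries and bars their mean, blue for young (4 months) and red for old (24 months). Matn4 stands at 464.5 and 353 in young and at 3116 and 3235.5 in old HSCs, Sparc shows the opposite arrangement, and Fn1 is highest in young replicate 14.

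Matn4 encodes matrilin 4, an adaptor protein that forms filaments between other matrix components. It was measured at 464.5 and 353 scaled reads in young replicates 13 and 14 and at 3116 and 3235.5 in old replicates 13 and 14. Both old replicates were far above both young ones, and technical libraries differed by at most 0.05 on the log2 scale. The fitted log2 difference was 2.97 (SE 0.18, adjusted p = 0.00193 in limma), a fold of 7.83. By p-value Matn4 ranked 7 of the 18318 genes tested. The authors' deposited table, made from the same libraries, also marks Matn4 as higher in old HSCs, with a log2 fold change of 2.93 and an FDR of 2.28e-96. For this and the other genes, that table does not state whether technical libraries counted as replicates. The call was lost without old replicate 13 (adjusted p = 0.124) or old replicate 14 (adjusted p = 0.158), settings under which limma called 0 genes of all those tested, with 3669 and 1933 at an unadjusted p under 0.05. It was also lost with no filter on low values (adjusted p = 0.0551).

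Matn4 lies on the minus strand of chromosome 2, from 164215130 to 164230660 in the mm9 build. Its span overlaps that of Rbpjl, a paralog of the Notch pathway transcription factor Rbpj, on the opposite strand by 1966 bases. Rbpjl rose as well, from 42 and 29.5 in young to 318.5 and 227.5 in old HSCs, with a log2 difference of 2.92 (SE 0.31, adjusted p = 0.00662 in limma). In the GENCODE annotation of the GRCm38 build, 149 exonic bases are shared by both genes, out of 5174 exonic bases of Matn4 and 5732 of Rbpjl. Whether the libraries kept strand is not stated, so reads from those bases cannot be assigned to 1 of the genes. The old mean of Rbpjl, 273, was well under that of Matn4, 3176.

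Matn2, the other matrilin that passed the filter, did not pass the test. It was 126 and 127.5 in young against 73 and 82.5 in old HSCs, with both old replicates below both young ones. The log2 difference was -0.70 with a 95% interval from -1.29 to -0.12 (adjusted p = 0.255 in limma). The authors' deposited table marks Matn2 as lower, with an FDR of 0.0149. The span of Matn2, on the plus strand of chromosome 15 from 34236437 to 34365995, overlaps the opposite-strand model 9430069I07Rik, which had means of only 1.75 in young and 1.5 in old HSCs. Matn1 and Matn3, the cartilage matrilins, were at or under 7.5 scaled reads in every replicate and were not tested.

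Sparc encodes osteonectin, a collagen-binding matricellular protein that is abundant in bone and is also stored in platelets. It was 357.5 and 537 in young replicates 13 and 14 and 67 and 69.5 in old replicates 13 and 14. The groups did not overlap, and the young replicates lay further apart than the old ones. The log2 difference was -2.67 (SE 0.26, adjusted p = 0.00499 in limma), so that the fitted level was 6.38-fold higher in young HSCs. The authors' deposited table gives a log2 fold change of -2.75 and an FDR of 7.07e-52. As for Matn4, the call was lost without old replicate 13 (adjusted p = 0.133), without old replicate 14 (adjusted p = 0.194) and with no filter (adjusted p = 0.0777). Sparc lies on the minus strand of chromosome 11, from 55208004 to 55233582 in mm9, and overlaps no other gene model of the table.

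Summed levels of stroma, of erythroid and of lymphoid markers were lower in both old replicates, as Sparc was. All 12 tested genes of the 14 stroma markers had a fitted difference below 0, a sign that 43.5% of all tested genes showed, but only 2 were called lower (Col1a1 and Col3a1). The 14 genes summed to 7096 and 7482 in young against 3364 and 3128 in old HSCs. Col1a1, a chain of type I collagen and a partner of SPARC, was 905.5 and 1794 in young against 65 and 58 in old HSCs, and Bglap, a marker of mature osteoblasts, was 3 and 29.5 in young and listed at 0 in both old replicates. By mean scaled reads over the 4 replicates the most abundant of the 14 was Cxcl12, at 2938 and 1299.5 in young against 1461 and 986 in old HSCs, which did not pass, and Twist2 was at or under 2 throughout. The erythroid markers summed to 7969 and 7174.5 in young against 3757.5 and 4107 in old HSCs. They were 10 gene models of 9 matched symbols, since Hba-a1, an alpha globin gene, has separate models. All 10 had a fitted difference below 0 and 4 were called lower, among them Ermap, the most abundant, at 2412.5 and 2591.5 against 977.5 and 609.5. The globin models overlapped between the ages, as with Hba-a1 at 691.5 and 697.5 in young against 449 and 869.5 in old HSCs. The lymphoid markers summed to 2481.5 and 3429 in young against 1915.5 and 2245 in old HSCs. Of the 6 tested, 5 had a fitted difference below 0 and 0 were called. Most of the fall in the sum came from Nkg7, the most abundant, at 1281 and 2138 in young against 696 and 983 in old HSCs. Cd79b, next in level, was 1033 and 1005.5 against 1066 and 1195. The megakaryocyte markers summed to 20582 and 26327 in young against 23444.5 and 26375.5 in old HSCs. Of the 10 tested, 0 were called in limma or limma-voom, with 3 at an unadjusted p under 0.05, and Pf4 was 1914 and 3222.5 in young against 2194 and 2760.5 in old HSCs. Of 12 monocyte or macrophage markers, 10 had a fitted difference below 0 (median -0.76) and 6 had both old replicates below both young ones. Of 12 neutrophil markers, 11 were below 0 (median -2.51) and 5 had that arrangement. The sums of these 2 lists overlapped between the ages. Among the 12 tested stroma markers (median -0.73) 9 had the arrangement, as did 17.4% of all tested genes. The part of any of these cell types in the level of Sparc was not tested.

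**Figure D2:**
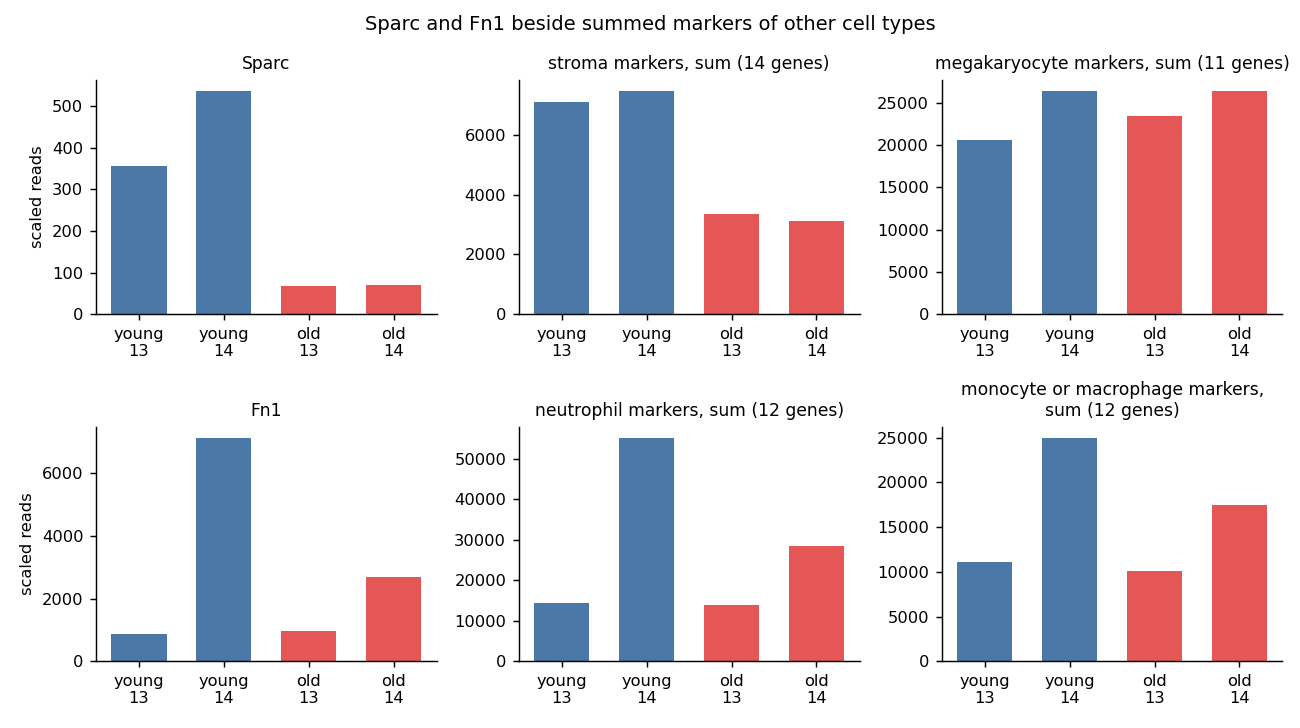
Scaled reads (vertical axes, starting at 0) of Sparc and Fn1 beside the summed scaled reads of marker lists, 1 bar per biological replicate, blue for young and red for old. The stroma sum is lower in both old replicates, as Sparc is, and the neutrophil and monocyte or macrophage sums are highest in young replicate 14, as Fn1 is. The erythroid and lymphoid sums, not drawn, were also lower in both old replicates, and the lymphoid sum was also highest in young replicate 14.

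Fn1 encodes fibronectin, the ligand of the integrins alpha 4 beta 1 and alpha 5 beta 1. It was 874.5 and 7116 in young replicates 13 and 14 and 983 and 2700.5 in old replicates 13 and 14. The ages overlapped, and at each age replicate 14 was the higher, by 8.14 times in young and 2.75 times in old HSCs. The gene lies on the minus strand of chromosome 1, from 71632098 to 71699745. Technical libraries of a replicate differed by at most 0.02 on the log2 scale. The log2 difference with age was -0.61 with a 95% interval from -2.77 to 1.54 (adjusted p = 0.842 in limma). It turned to 0.90 without young replicate 14 and to 0.11 without old replicate 13, and was -2.13 without young replicate 13 and -1.34 without old replicate 14. The authors' deposited table marks Fn1 as lower in old HSCs with an FDR of 2.18e-16; which libraries entered that comparison as replicates is not stated there.

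Summed levels of myeloid markers had the same order of replicates as Fn1 within each age. The megakaryocyte and lymphoid sums had that order too, while the stroma, endothelium, erythroid and HSC sums did not. Of the megakaryocyte markers 8 of 11 were higher in replicate 14 at both ages, and of the lymphoid markers 3 of 12. That order at both ages was also found for 6 of 14 stroma, 3 of 12 endothelium, 1 of 10 HSC and 1 of 10 erythroid markers. The share over all genes was not counted, so no count of this kind in this paragraph has a baseline. The 12 neutrophil markers summed to 14502 and 55140 in young against 13886.5 and 28390.5 in old HSCs, with Mpo, the myeloperoxidase of granulocyte progenitors, at 3598, 27762, 4428 and 10022. The 12 monocyte or macrophage markers summed to 11063, 24933.5, 10092 and 17418.5 in the same order. Gene by gene, 12 of 12 neutrophil markers and 7 of 12 monocyte or macrophage markers were higher in replicate 14 than in replicate 13 at both ages; C1qa, C1qb, C1qc, Mrc1 and Cd163 were not. Of the neutrophil markers 0 of 12 were called in limma or limma-voom, with 6 at an unadjusted p under 0.05, and 11 had a fitted difference below 0. Of the monocyte or macrophage markers 1, Vcam1, was called lower. No gene of either list was at 0 in all replicates. The most abundant monocyte or macrophage marker, the lysozyme gene Lyz2, was 7890, 16822, 7720.5 and 13044. The part of any of these cell types in the level of Fn1 was not tested.

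Thbs1 encodes thrombospondin 1, a matricellular protein of platelets that binds Cd47 and Cd36. It was 249.5 and 306 in young against 232 and 197.5 in old HSCs, with both old replicates below both young ones and a log2 difference of -0.37 (95% interval -0.89 to 0.15, adjusted p = 0.553 in limma). Thbs1 is on the plus strand of chromosome 2, from 117937659 to 117952869. Its receptor gene Cd47 was 8318 and 9733 in young against 7481 and 8481 in old HSCs, and Cd36 was 133.5 and 180 against 122.5 and 161. Neither receptor gene was called.

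Fbln1 encodes fibulin 1, which binds fibronectin, laminin and nidogen. It was low, with 50 and 43 in young against 32 and 58.5 in old HSCs, so the old replicates lay on either side of the young ones. Fbln1 lies on the plus strand of chromosome 15, from 85036439 to 85116724. Its 8 libraries held between 15 and 66 reads before scaling. The log2 difference was -0.10 with a 95% interval from -0.997 to 0.80, which leaves a fall of nearly 2-fold or a somewhat smaller rise within the error. Among its relatives, Efemp1 (fibulin 3) rose from 28.5 and 30.5 to 88.5 and 87 (adjusted p = 0.0438 in limma). Efemp2 (fibulin 4), needed for elastic fibre assembly, rose from 41 and 32.5 to 147.5 and 192.5 (adjusted p = 0.0151 in limma).

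Lamc1 encodes laminin gamma 1, the gamma chain of most laminin trimers. The gene lies on the minus strand of chromosome 1, from 155066053 to 155179916. Lamc1 was 1732 and 1701 in young against 1958.5 and 1795 in old HSCs. The old replicates lay just above the young ones, and the log2 difference of 0.13 had the narrowest interval of the 10 genes, from -0.20 to 0.46 (adjusted p = 0.775 in limma). On the FPKM scale, which corrects for gene length, Lamc1 was at 4.52 in young and 4.94 in old HSCs, and the gamma 3 chain gene Lamc3 at 0.0635 and 0.0983. Of the alpha chain genes, Lama5 was 1485.5 and 946 in young against 3315 and 1840 in old HSCs, a log2 difference of 1.06 that did not pass (adjusted p = 0.179). Of the beta chain genes, Lamb2 was 543.5 and 441 in young against 380.5 and 314.5 in old HSCs and did not pass (adjusted p = 0.333). Lama4, with means of 201 in young and 391 in old HSCs, and Lamb1, with 52 and 26.2, did not pass either.

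The nidogens, which bridge laminin gamma 1 and collagen IV, did not pass the test. Nid1 (plus strand of chromosome 13, from 13529870 to 13604542) was 73.5 and 92 in young against 37.5 and 52 in old HSCs, and both old replicates were below both young ones. The log2 difference was -0.89 with a 95% interval from -1.63 to -0.14 (adjusted p = 0.256 in limma). Technical libraries of a replicate differed by up to 0.73 on the log2 scale, close to the size of the age difference. Nid2 (plus strand of chromosome 14, from 20570480 to 20631009) was 150 and 151.5 in young against 126.5 and 116 in old HSCs, a log2 difference of -0.31 (95% interval -0.86 to 0.23). Its span overlaps 385 bases of the model 2700060E02Rik on the opposite strand, whose means were 4383 in young and 5080 in old HSCs, so some reads may belong to either.

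Hspg2 encodes perlecan, the large heparan sulphate proteoglycan of basement membranes. Hspg2, on the plus strand of chromosome 4 from 137024719 to 137126545, was 175.5 and 151 in young against 156 and 114.5 in old HSCs. The ages overlapped, with a log2 difference of -0.28 and a 95% interval from -0.89 to 0.33 (adjusted p = 0.722 in limma). Agrn, a related proteoglycan of basement membranes, was 1358 and 1095 in young against 1491.5 and 1150 in old HSCs and did not pass. The collagen IV gene Col4a2 fell from 4995 and 4282.5 to 2379 and 2198 (adjusted p = 0.0199 in limma), while its partner Col4a1 was 4854.5 and 3874 against 2635 and 2119.5 (adjusted p = 0.0615). Col4a5 was 186 and 133 in young against 256.5 and 212 in old HSCs, and Col4a6 was 109 and 80.5 against 149 and 133.5, and neither passed. Col4a3 and Col4a4 were under the filter. Whether the laminin and collagen IV genes differ in their change was not tested.

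**Figure D3:**
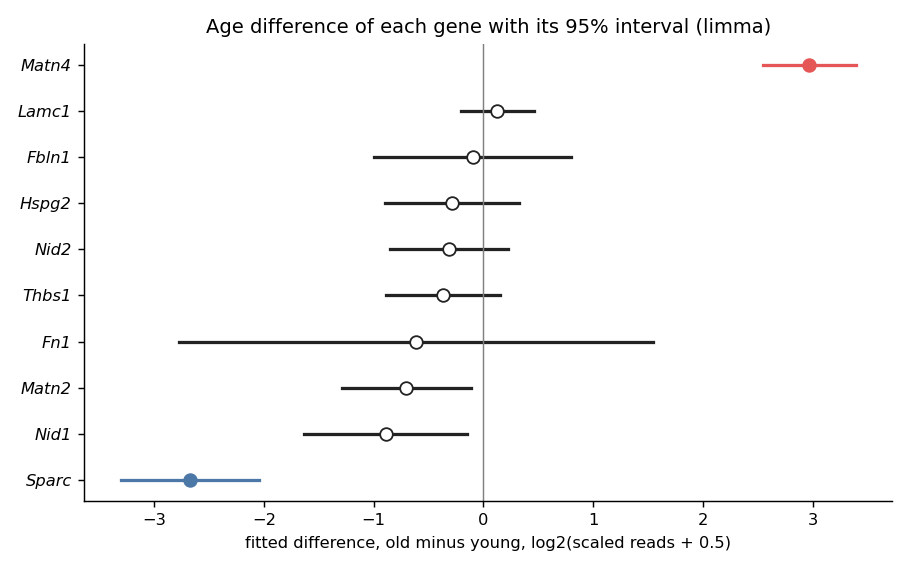
Fitted difference with age of each gene (horizontal axis, old minus young on the log2(scaled reads + 0.5) scale) with its 95% interval from limma. Filled points passed the test, red for Matn4 (2.97) and blue for Sparc (-2.67), and open points did not. The interval of Fn1 is the widest and that of Lamc1 the narrowest.

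Counted together, 5 of the 10 genes had both old replicates below both young ones, namely Matn2, Nid1, Nid2, Thbs1 and Sparc, and 2, Matn4 and Lamc1, had both above. Of all tested genes 17.4% showed the first arrangement and 24.7% the second. A fitted difference below 0 was found for 8 of the 10. Besides Matn4 and Sparc, Matn2 and Nid1 had an unadjusted p under 0.05, which 14% of all tested genes had. The authors' deposited table marks 4 of the 10 (Matn4 as higher, and Matn2, Fn1 and Sparc as lower), against 11.8% of its genes with an FDR (6% as higher and 5.82% as lower). Since the 10 genes were chosen with earlier results of these data known, these counts do not test the set against all genes.

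The order of levels, on the FPKM scale, differed between the ages. In young HSCs Fn1 (9.67 ± 10.7, SD, n = 2), Lamc1 (4.52 ± 0.0577), Sparc (3.91 ± 1.11) and Matn4 (3.19 ± 0.616) came highest, and neighbours in this order overlapped between replicates. In old HSCs Matn4 was highest at 24.8 ± 0.66 and stood apart from Lamc1 (4.94 ± 0.304), which overlapped Fn1 (4.46 ± 2.94). Sparc had moved to rank 5, at 0.596 ± 0.0154. Thbs1 (0.961 in young and 0.743 in old HSCs), Matn2 (0.724 and 0.444) and Nid2 (0.62 and 0.499) stood between the high and the low genes, and their replicates were apart from those of their neighbours at each age. Fbln1, Nid1 and Hspg2 were the lowest 3 at both ages, with no replicate above 0.35 FPKM, and overlapped their neighbours among these 3.

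Matn4 made up most of the summed FPKM of the 10 genes in old HSCs and a minor share in young ones. The sum was 16.4 and 32.3 in young against 34.8 and 39.5 in old replicates 13 and 14. Matn4 accounted for 22.1% and 8.53% of it in young and 70.1% and 64.1% in old HSCs. Fn1 accounted for 53.2% in young replicate 14 and for 12.9%, 6.84% and 16.6% in young 13, old 13 and old 14. The ratio of Matn4 FPKM to Sparc FPKM was 1.16 and 0.588 in young and 41.6 in both old replicates. Among all tested genes Matn4 stood at percentile 39.2 of FPKM in young and 82.7 in old HSCs, and Sparc at 42.1 and 19.7.

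**Figure D4:**
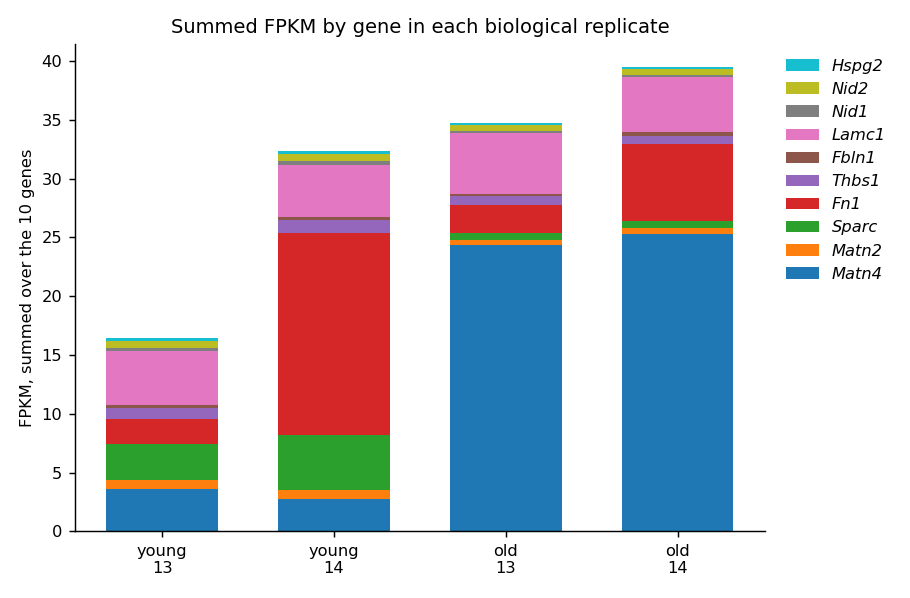
FPKM of the 10 genes stacked for each biological replicate (vertical axis, starting at 0). The sums are 16.4, 32.3, 34.8 and 39.5. Matn4 is the main part in both old replicates and Fn1 in young replicate 14.

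The genes most like Matn4 in profile over the 8 libraries were Tmem215, Prkcz and Hoxb8, with distances of 0.465, 0.497 and 0.50 between profiles of log2(scaled reads + 0.5) centred on their own mean. Prkcz, an atypical protein kinase C, was 27 and 27.5 in young against 211.5 and 207 in old HSCs, and Hoxb8, a homeobox gene, 119.5 and 100.5 against 671.5 and 776. For Sparc the nearest were Siglecg, Hist1h2bg and Cd86, at larger distances of 1.15, 1.16 and 1.18. Cd86, which encodes a ligand of the T cell receptor CD28, was 247.5 and 302 in young against 70.5 and 75.5 in old HSCs. The 12687 named genes were compared in each case, and the 8 libraries come from only 4 replicates.

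Other matrix genes went both ways. Of 19 tested family relatives of the 10 genes, 2 were called higher (Efemp1 and Efemp2) and 0 lower in limma, against 1 and 0 in limma-voom, with 8 at an unadjusted p under 0.05 and a median log2 difference of 0.25. Of 28 other matrix glycoproteins 2 were called higher and 0 lower by either tool, with 12 at an unadjusted p under 0.05 and a median of -0.05. These were Vwf, the clotting factor, from 10990 and 13906 to 35060 and 40728, and Ltbp4, which binds latent TGF-beta, from 812 and 591 to 1613.5 and 1689. Of 18 proteoglycan genes 0 were called in limma or limma-voom, with 7 at an unadjusted p under 0.05 and a median of -0.28.

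Of 12 tested collagen partner genes, 5 were called lower (Col1a1, Col3a1, Col4a2, Col5a1 and Col5a2) and 1 higher in limma, against 4 and 1 in limma-voom. Of all tested genes limma called 0.54% lower and 2.01% higher. The median log2 difference of the 12 was -1.15. The gene that rose was Col18a1, a basement membrane collagen that carries heparan sulphate, from 468 and 563 to 1361.5 and 1613.5 (adjusted p = 0.00975 in limma). Col1a1 and Col3a1 are also in the list of stroma markers.

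Of 26 tested matrix receptor genes 3 were called higher and 2 lower in limma, against 2 and 2 in limma-voom, with a median log2 difference of -0.16. Itgb3, the beta 3 integrin, which binds fibronectin and thrombospondin, rose from 5949 and 6733 to 15185 and 17426. Itga3, a laminin receptor subunit, rose from 407 and 342.5 to 748.5 and 747, and Ddr1, a collagen receptor kinase, from 131 and 85 to 386 and 383.5. Itga9 fell from 581 and 593.5 to 218 and 227.5, and Itgb5, a vitronectin receptor subunit, from 288.5 and 270 to 87.5 and 83.5. The fibronectin receptor genes Itga4, Itga5 and Itgb1 were not called.

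**Figure D5:**
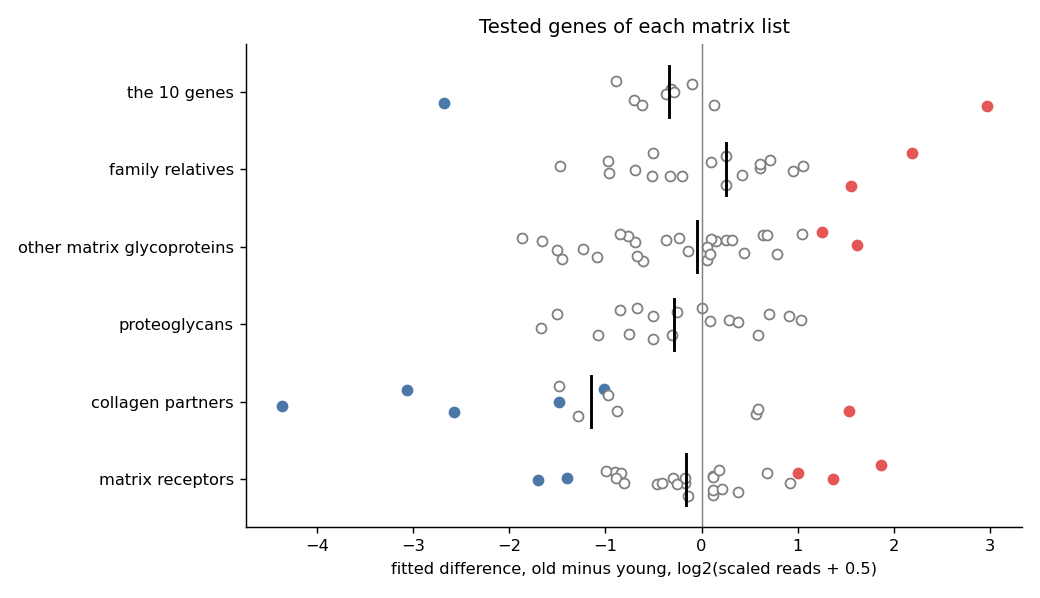
Fitted difference with age (horizontal axis, old minus young on the log2(scaled reads + 0.5) scale) of each tested gene in 6 lists. Red points were called higher and blue points lower in old HSCs, open points were not called, and black bars are list medians. The collagen partners have the lowest median, -1.15.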

How the data were processed

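Per the labels' protocols, polyadenylated RNA was prepared with a TruSeq kit. The submitters' processing notes list the mm9 build and DESeq without saying what each was used for, and the sources used here name no aligner or counter. The deposited gene values, named scaled reads in the text, are a score and not raw counts: the authors' values skip or repeat whole numbers in each library in the way that reads times a constant, then rounded, would. The deposited FPKM is that score times 1 constant per gene. The authors' deposited table adds a log2 fold change of 24 over 4 months and an FDR, an adjusted p-value.

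The 2 technical libraries of each biological replicate were averaged. Log2(value + 0.5) of the 4 replicates was compared between ages in limma 3.58.1 under R 4.3.3, with a trended prior; tests were two-sided, with p adjusted by Benjamini-Hochberg. Genes with a value of at least 10 in at least 2 replicates were tested (18318 of 38172). Fold changes on this scale understate the change of low genes. The 10 genes and the lists were chosen with earlier results of these data known. Named genes were the 10 genes, up to 6 called genes of each list with the smallest p, laminin, nidogen and collagen IV partners called or not, the 3 nearest profiles to Matn4 and Sparc, and the sort genes, Col1a1, Cdh5, Pf4 and the most abundant marker genes. Rbpjl, 2700060E02Rik, 9430069I07Rik, Bglap, Twist2, C1qa, C1qb, C1qc, Mrc1, Cd163, Procr, Vcam1, Ramp2, Kdr, Agrn, Cd47, Cd36, Cd79b, Hba-a1, Itga4, Itga5, Itgb1, Matn1 and Matn3 were named after their values were seen. Alternatives covered the pseudocount, filter, scaling, limma-voom, single technical libraries, a replicate block and leaving out each replicate.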

Additional observations from a re-analysis of the deposited data

How the results depend on the processing

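The number of genes called, 467, was 0 in limma with no filter on low values (2943 of 27330 at an unadjusted p under 0.05), 302 with a mean FPKM of at least 1, 302 with the lower-numbered technical libraries and 2766 with the replicate block. Of the 10 genes, 2 were called, against 0 with no filter (4 at an unadjusted p under 0.05) and 4 with the replicate block, which added Matn2 (adjusted p = 0.0289) and Nid1 (adjusted p = 0.0154) as lower. Of the 103 other matrix genes tested, 15 were called, against 0 with no filter (46 of 135 at an unadjusted p under 0.05) and 53 with the replicate block. Leaving out 1 replicate gave between 0 and 274 genes, between 0 and 2 of the 10 genes and between 0 and 8 of the other matrix genes, with 0 in each case when an old replicate was left out. The replicate numbers 13 and 14 are shared by the ages, but the labels do not say that they pair samples; the 13-minus-14 differences of young and old HSCs correlated across genes with r = 0.544, and 2 pairs cannot settle it.

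The log2 difference ran from 2.77 to 3.17 for Matn4 and from -2.97 to -2.38 for Sparc over 13 alternatives each. The sign of Fbln1 turned with the higher-numbered technical libraries (0.0239) and without young replicate 13 (0.0096) or old replicate 13 (0.33); over all 4 replicates left out in turn it ran from -0.53 to 0.33. The sign of Fn1 turned without young replicate 14 (0.90) or old replicate 13 (0.11), and over all 4 it ran from -2.13 to 0.90. With n = 2 per age, small changes of low genes such as Fbln1 were not detectable.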
